A study of Mus musculus with 6 samples.

Results

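Rab GTPases and EHD proteins direct membrane traffic inside the cell, and their genes were followed in Raw264.7 macrophages cultured on 2 titanium surfaces. Members were chosen by gene symbol alone: every row of the count table named Rab with a number and at most 1 further letter, and Ehd1 to Ehd4. This gave 57 of the 16171 genes in the table, 53 Rab genes and 4 EHD genes. The 10 other symbols that begin with Rab and a digit name partner or other proteins and were left out. The symbol rule used no count and no fold change, but the family was picked with results of the surface comparison known, so counts of its members are given as descriptions and support nothing about the family.

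The surfaces were THCaP, titanium with a calcium phosphate nanowire coating, and TH, titanium with titanate nanowires produced by alkaline heat treatment, with 3 RNA-seq libraries each. Raw264.7 is an established mouse macrophage line, here wild type on both surfaces. On both surfaces the cells had 12 h to attach, then 2 h with lipopolysaccharide (LPS, a bacterial trigger of macrophage activation) at 1 µg/mL, and then 1 d of culture, so there is no comparison without LPS. The labels do not state whether libraries of a surface came from separate cultures, and all p-values therefore measure only the spread between these samples, which may be technical.

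Rab proteins are small GTPases that switch between a GTP-bound form on membranes and an inactive GDP-bound form. Exchange factors (GEFs) load GTP, GTPase-activating proteins (GAPs) end the active state, and effectors bound by the active form tether, move or fuse vesicles. EHD proteins are ATPases that bend and cut endosomal membrane, and in macrophages these systems serve uptake of particles, return of receptors to the surface and release of cytokines.

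Library totals were 28000099 to 29453473 counts for THCaP and 28198285 to 30317108 for TH. All 7 macrophage markers examined were tested, with summed levels of 2865 to 3052 CPM (counts scaled by the TMM-adjusted library total) on THCaP and 2731 to 3158 CPM on TH. Of them 1, the lysozyme gene Lyz2, was higher on THCaP (log2 fold change 0.63, edgeR adjusted p = 0.0223). The others did not pass 0.05 and went both ways. Csf1r and Itgam had log2 fold changes of 0.31 and 0.02 (edgeR adjusted p = 0.0504 and 0.865). Cd14, Cd68, Ptprc and Adgre1 had -0.35, -0.23, -0.19 and -0.14 (edgeR adjusted p = 0.0501, 0.0643, 0.0998 and 0.444). Of 14 markers of fibroblasts, endothelial, epithelial and lymphoid cells, 11 were analysed, and 1, Pecam1, passed the filter on low counts. Pecam1 had a log2 fold change of -0.66 (edgeR adjusted p = 0.0613). The endothelial markers summed to 2.27 to 3.99 CPM on THCaP and 4.55 to 5.61 CPM on TH, nearly all of it Pecam1, and their part in the results was not tested. The other endothelial markers, Cdh5 and Kdr, had 6 and 3 counts over the THCaP libraries and 3 and 5 over the TH libraries. The fibroblast markers summed to at most 0.350 CPM in any library.

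Of the 57 members, 47 had enough counts to be tested, and 11 differed between the surfaces at an edgeR adjusted p under 0.05, which is what "called" means here. Rab27a, Rab35 and Rab28 were higher on THCaP, and Rab15, Ehd1, Rab20, Rab33b, Rab34, Rab12, Rab5a and Rab22a were lower. The other 36 were not called. The called share was 23.4% of tested members, against 23.6% of all 11480 tested genes, so the number of calls does not set the family apart. Calls higher on THCaP made up 6.38% of tested members, against 11.6% of all genes, and calls lower on THCaP 17.0%, against 12.0%. THCaP and TH libraries did not overlap for 18 of the 47 tested members (38.3%), against 43.4% of all tested genes. The median log2 fold change, THCaP over TH, was -0.07 over the tested members and 0.0064 over all tested genes. In bulk RNA, fewer cells of a kind and less RNA per cell cannot be told apart.

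These counts moved with single libraries, as did those of all genes, mostly but not always in the same direction. Leaving out THCaP 1, TH 2 or TH 3 left 6, 6 and 5 of the 47 tested members called, while 6.53%, 6.91% and 6.77% of all tested genes were called. Leaving out THCaP 3 gave 18 of 47 members called, and 36.0% of all genes. Leaving out THCaP 2 gave 8 of 47 and 14.4%. Without TH 1 more members were called than with all libraries, 14 of 47, but fewer of all genes, 21.2%. Ehd1, Rab15, Rab20, Rab27a and Rab33b, 5 of the 11 called members, were called with each of the 6 libraries left out in turn. Of all 2709 called genes, 630 (23.3%) were.

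**Figure D1:**
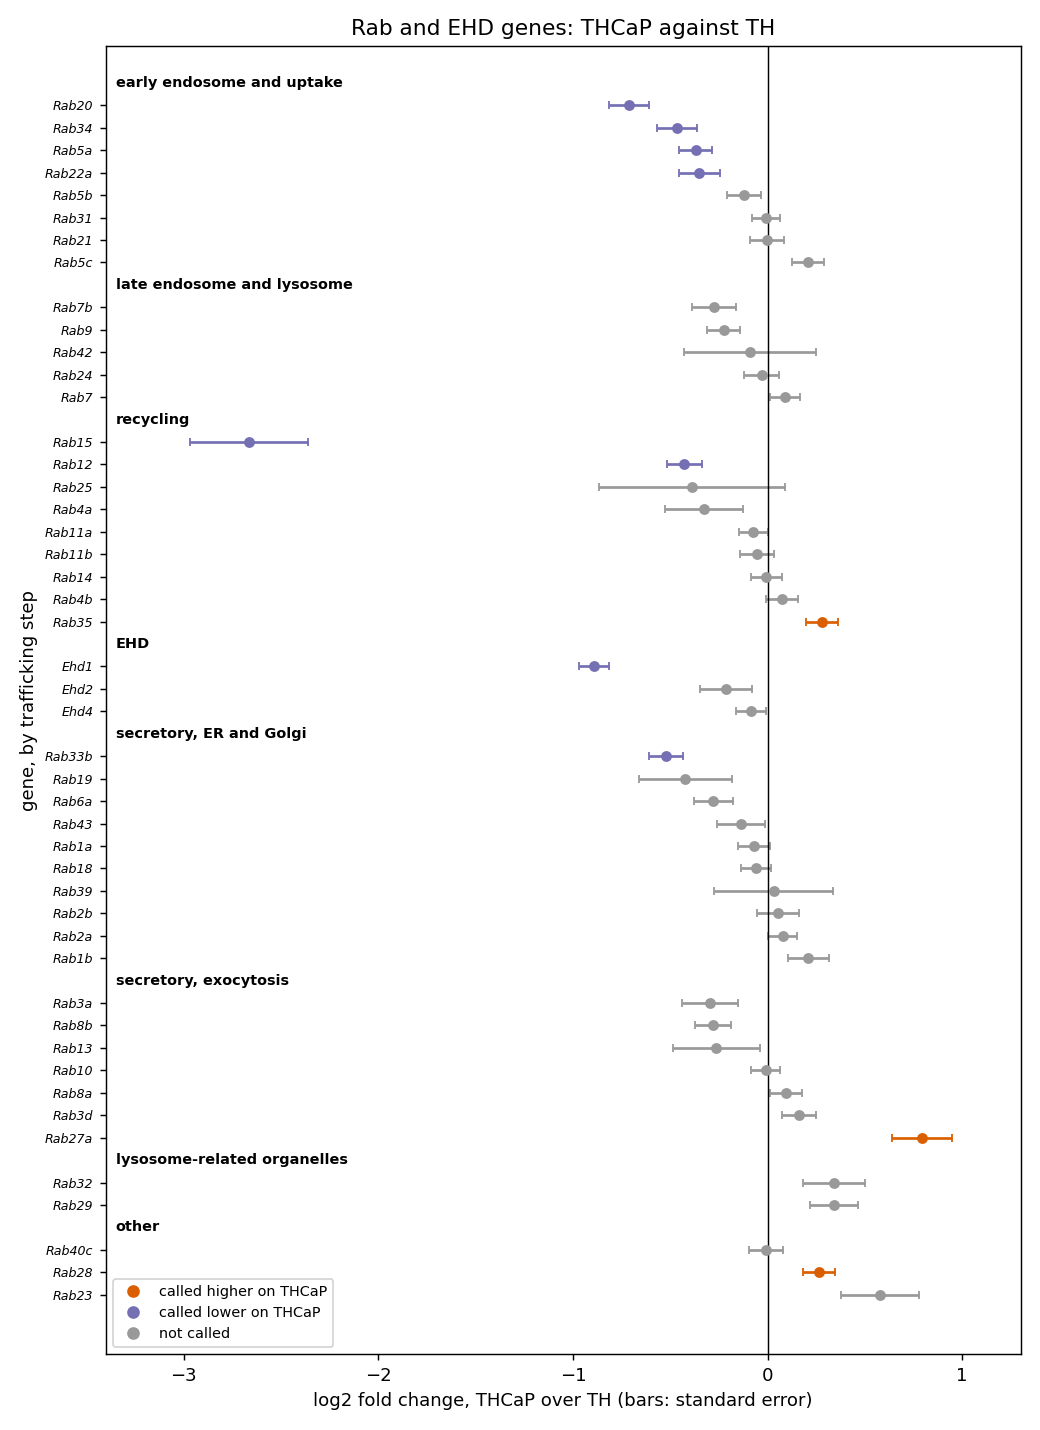
Log2 fold change, THCaP over TH, of the 47 tested members by class, each point a gene with its standard error. Called members are marked. The class of the early endosome and uptake holds 4 calls among 8 tested Rabs, all lower on THCaP. Of all tested genes, 23.6% were called in either direction and 12.0% lower. Classes were drawn up with earlier results of these data known.

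Classes were drawn up with earlier results of these data known. Of the 8 tested Rabs of the early endosome and of uptake, 4 were called (50%, against 23.6% of all tested genes). All of these calls were lower on THCaP, where 12.0% of all tested genes were called lower. Rab20, Rab34, Rab5a and Rab22a fell, and Rab5b, Rab5c, Rab21 and Rab31 were not called. Without THCaP 1 or without TH 3, Rab20 was the only called Rab of these 8, and without TH 2 Rab20 and Rab34 were called. The class had a median log2 fold change of -0.24. Over both endocytic classes, early and late, 4 of 13 tested Rabs were called (30.8%, against 23.6% of all tested genes), with a median of -0.12. No test between classes was made.

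Rab20, which acts in the maturation of phagosomes, was present at 11.7, 11.3 and 12.0 CPM in THCaP libraries 1 to 3, against 20.4, 17.8 and 19.1 CPM in TH libraries 1 to 3. The THCaP libraries lay close together and all below the TH libraries. Rab20 was 1.64-fold lower on THCaP (log2 fold change -0.71, SE 0.10, edgeR adjusted p = 0.00449). Rab20 lies on chromosome 8, bases 11453518 to 11478710 of GRCm38, minus strand, and shares 356 exonic bases with a gene model on the opposite strand, E230013L22Rik.

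Rab34, linked to macropinocytosis and lysosome position, had 57.2, 53.3 and 68.5 CPM on THCaP and 86.3, 78.4 and 82.5 CPM on TH. Its groups did not overlap, and THCaP 3 was the THCaP library nearest to TH. It was 1.38-fold lower on THCaP (log2 fold change -0.47, SE 0.10, edgeR adjusted p = 0.0145). Without THCaP 1 or TH 3 the edgeR adjusted p was 0.0678 and 0.0567, and limma on FPKM without a filter gave an adjusted p of 0.0690. Rab34 spans bases 78188430 to 78192193 of chromosome 11, plus strand.

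Rab5a, one of 3 Rab5 genes whose proteins organise fusion of early endosomes, had 60.5, 59.6 and 67.3 CPM on THCaP and 75.3, 80.4 and 86.5 CPM on TH. All THCaP libraries lay below all TH libraries, and Rab5a was 1.29-fold lower on THCaP (log2 fold change -0.37, SE 0.09, edgeR adjusted p = 0.0180). Its edgeR adjusted p was 0.0860 without THCaP 1, 0.0666 without TH 2 and 0.0875 without TH 3, and limma on FPKM without a filter gave 0.0554. The gene lies at bases 53479234 to 53507680 of chromosome 17, plus strand.

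Rab5c, the most abundant member per length on THCaP, had 219.9, 236.6 and 209.3 CPM on THCaP and 203.1, 189.2 and 184.7 CPM on TH. Its THCaP libraries all lay above its TH libraries, the opposite order to Rab5a, but it was not called (log2 fold change 0.21, SE 0.08, edgeR adjusted p = 0.0896). It passed at 0.0430 when libraries were scaled by their totals alone, at 0.0456 by limma on log2(FPKM + 1), and at 0.0422 by edgeR without THCaP 3. Rab5b had a log2 fold change of -0.12 and was not called (edgeR adjusted p = 0.317).

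Rab22a, which sorts cargo between early and recycling endosomes, had 37.1, 33.8 and 36.7 CPM on THCaP and 39.2, 48.3 and 49.9 CPM on TH. TH 1 lay just above the highest THCaP library, without overlap. Rab22a was 1.28-fold lower on THCaP (log2 fold change -0.35, SE 0.11, edgeR adjusted p = 0.0399). Its edgeR adjusted p was 0.106 without THCaP 1, 0.0854 without THCaP 2, 0.136 without TH 2 and 0.155 without TH 3. With all libraries it was also not called when scaled by library totals (edgeR adjusted p = 0.0603) or by limma on FPKM (adjusted p from 0.0667 to 0.128).

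Rab31, which carries cargo between the trans-Golgi and endosomes, was among the most abundant members, with 321.8, 317.8 and 337.6 CPM on THCaP and 319.2, 330.3 and 333.6 CPM on TH. These ranges overlapped throughout (log2 fold change -0.01, SE 0.07, edgeR adjusted p = 0.941). Rab21, linked to integrin uptake, had 68.1 to 71.7 CPM on THCaP and 62.8 to 74.7 CPM on TH and was not called.

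None of the 5 tested Rabs of late endosomes and lysosomes was called, where 23.6% of all tested genes were, and their median log2 fold change was -0.088. Rab7, the Rab of fusion with lysosomes, had 248.3, 259.5 and 233.0 CPM on THCaP and 233.9, 235.9 and 226.2 CPM on TH. The THCaP range reached into the TH range, with a log2 fold change of 0.09 (SE 0.08, edgeR adjusted p = 0.406). Rab7b, which has been tied to traffic from endosomes back to the Golgi, had 152.5, 126.1 and 176.1 CPM on THCaP and 179.5, 185.6 and 185.9 CPM on TH. Rab7b libraries did not overlap, but the THCaP libraries were spread widely and the gene was not called (log2 fold change -0.28, SE 0.11, edgeR adjusted p = 0.101). Rab9, which returns mannose 6-phosphate receptors to the Golgi, also had no overlap, with 24.2 ± 1.04 CPM on THCaP and 28.3 ± 0.324 CPM on TH (SD, n = 3 each), and was not called at a log2 fold change of -0.22 (SE 0.08, edgeR adjusted p = 0.0791). Rab24 and Rab42 had log2 fold changes of -0.03 and -0.09 and overlapped between surfaces.

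The recycling class gave mixed calls. Of 9 tested Rabs, Rab35 rose, Rab12 and Rab15 fell and 6 were not called, where 23.6% of all tested genes were called, with a median log2 fold change of -0.07. Rab35 returns cargo quickly to the plasma membrane. Rab12 directs transferrin receptor towards degradation, so its place in this class is not clear-cut.

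Rab35 had 71.6, 78.3 and 67.6 CPM on THCaP and 62.1, 59.6 and 57.3 CPM on TH. Every THCaP library was above every TH library, and the gene was 1.21-fold higher on THCaP (log2 fold change 0.28, SE 0.08, edgeR adjusted p = 0.0391). Its edgeR adjusted p was 0.126 without THCaP 1, 0.0968 without THCaP 2, 0.123 without TH 2 and 0.152 without TH 3.

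Rab12 had 66.8, 55.6 and 66.8 CPM on THCaP and 80.6, 86.3 and 87.5 CPM on TH, with no overlap. It was 1.34-fold lower on THCaP (log2 fold change -0.43, SE 0.09, edgeR adjusted p = 0.0138). Without TH 2 or TH 3 the edgeR adjusted p was 0.0599 and 0.0639, and limma on FPKM without a filter gave an adjusted p of 0.0588. Rab12 lies at bases 66494512 to 66519729 of chromosome 17, minus strand.

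Rab15, which is best known from early and recycling endosomes, had the largest fold change of the tested members and a very low level. It was singled out after its values were seen, because its mean lay under 5 CPM. It had 20, 13 and 11 counts on THCaP and 119, 77 and 80 counts on TH, or 0.700, 0.435 and 0.375 CPM on THCaP and 3.98, 2.77 and 2.87 CPM on TH. The highest THCaP library held fewer counts than the lowest TH library, and Rab15 was 6.35-fold lower on THCaP (log2 fold change -2.67, SE 0.30, edgeR adjusted p = 0.0019). In FPKM (the authors' values, scaled by gene length and library total) it averaged 0.147 ± 0.0507 on THCaP and 0.901 ± 0.192 on TH (SD, n = 3 each).

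Rab11a, the main Rab of the slower recycling route, had 112.9, 115.6 and 108.8 CPM on THCaP and 124.1, 115.5 and 115.5 CPM on TH. The values met at the edge of the ranges, and the gene was not called (log2 fold change -0.07, SE 0.07, edgeR adjusted p = 0.486). Rab14, which moves cargo between Golgi and endosomes, had 216.7, 205.7 and 218.9 CPM on THCaP and 201.8, 212.4 and 229.6 CPM on TH. Its ranges overlapped fully (log2 fold change -0.01, SE 0.08, edgeR adjusted p = 0.966).

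Rab4a, of the fast recycling route, was low, with 3.26, 2.48 and 3.31 CPM on THCaP and 4.21, 3.93 and 3.19 CPM on TH. The ranges overlapped and it was not called (log2 fold change -0.33, SE 0.20, edgeR adjusted p = 0.251). Its paralogue Rab4b, at 39.4 to 41.1 CPM on THCaP and 35.8 to 40.5 CPM on TH, carried most of the Rab4 signal. Rab11b and Rab25 were also not called, and Rab25 was under 0.5 CPM in every library.

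Ehd1, which shapes the tubules that carry receptors from recycling endosomes to the surface, had the largest drop among the members above 5 CPM. It had 87.2, 89.7 and 96.8 CPM on THCaP, against 166.0, 173.7 and 168.6 CPM on TH. Both sets of libraries were tight and far apart. Ehd1 averaged 91.2 ± 5.00 CPM on THCaP and 169.4 ± 3.96 CPM on TH (SD, n = 3 each). It was 1.86-fold lower on THCaP (log2 fold change -0.89, SE 0.08, edgeR adjusted p = 0.000707). With a library left out its edgeR adjusted p ran from 0.000123 to 0.0079. Ehd1 lies at bases 6276725 to 6300096 of chromosome 19, plus strand.

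Ehd4, an EHD of early endosomes, was the most abundant of the family, with 294.7 to 320.3 CPM on THCaP and 315.8 to 342.3 CPM on TH. Its ranges overlapped and it was not called (log2 fold change -0.09, SE 0.08, edgeR adjusted p = 0.435). Ehd2, known from the necks of caveolae, stayed under 11 CPM in every library and was not called (log2 fold change -0.21, SE 0.13, edgeR adjusted p = 0.259). Ehd3 had 0 counts in all 6 libraries, which allows at most 0.107 CPM in any one.

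**Figure D2:**
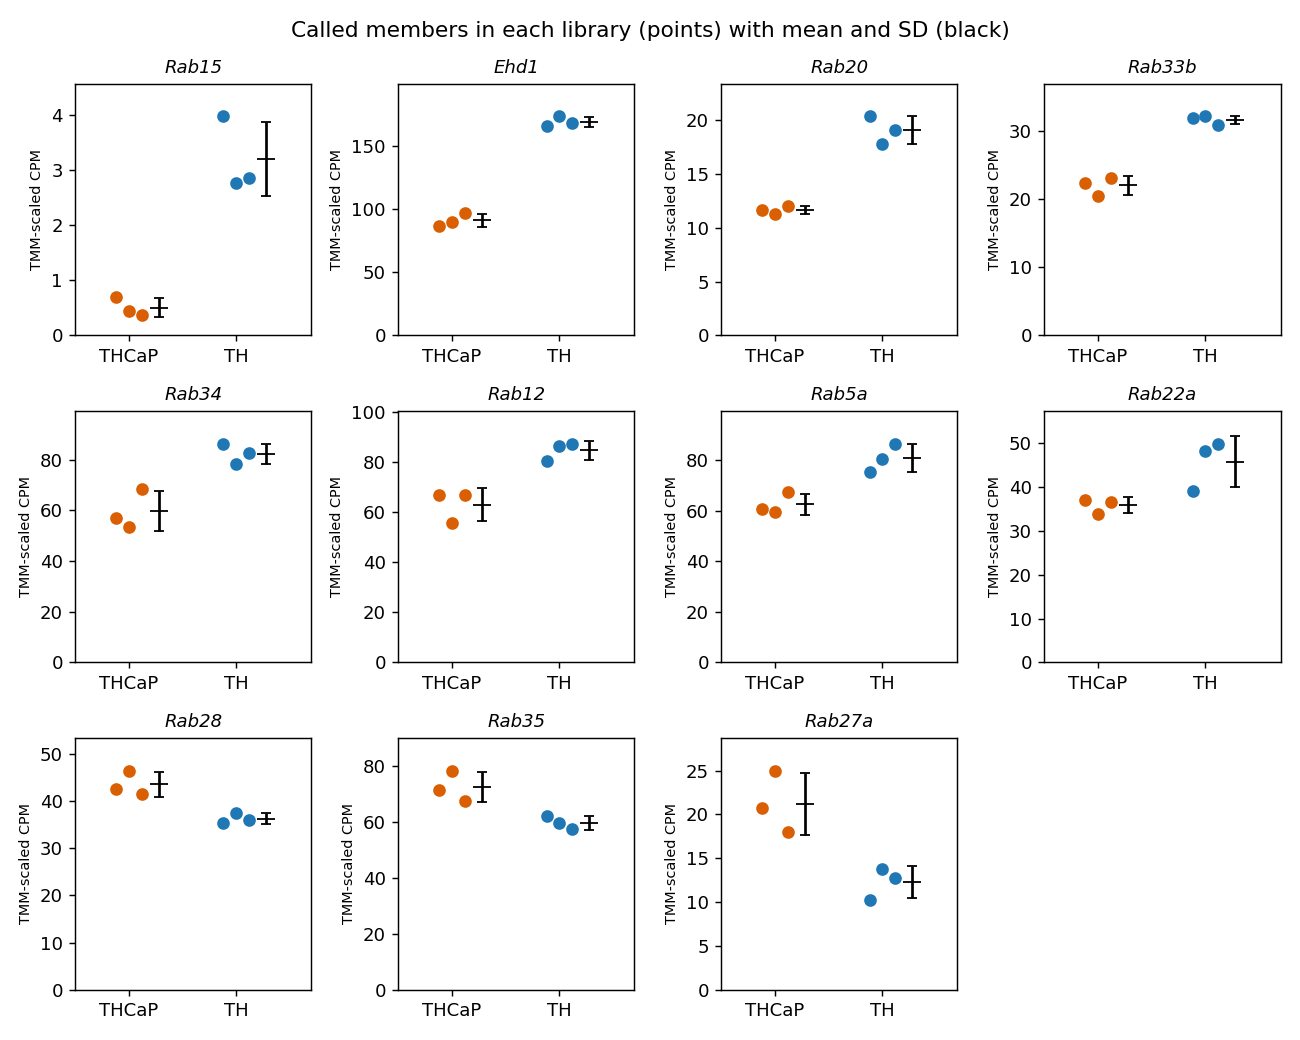
TMM-scaled CPM of each called member in the 3 THCaP and 3 TH libraries, one panel per gene with its own axis from 0, points for libraries, lines for means and bars for SD. In each panel the THCaP libraries lie on one side of the TH libraries, above them for Rab27a, Rab35 and Rab28 and below them for the other 8.

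In the secretory classes, 2 of 17 tested Rabs were called (11.8%, against 23.6% of all tested genes), Rab33b lower and Rab27a higher on THCaP, and the median log2 fold change was -0.06. Rab33b is a Golgi Rab that binds an autophagy factor. Rab27a docks secretory granules, lysosome-related organelles and exosome-forming compartments at the plasma membrane.

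Rab33b had 22.4, 20.5 and 23.1 CPM on THCaP and 31.8, 32.1 and 30.9 CPM on TH. The TH libraries were tight and lay above every THCaP library. It was 1.44-fold lower on THCaP (log2 fold change -0.52, SE 0.09, edgeR adjusted p = 0.00671). Rab33b lies at bases 51483920 to 51496232 of chromosome 3, plus strand, and shares 661 exonic bases with Gm38160 on the opposite strand.

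Rab27a had 20.7, 25.0 and 17.96 CPM on THCaP and 10.2, 13.8 and 12.8 CPM on TH. Every THCaP library was above every TH library, and the means were 21.2 ± 3.54 CPM on THCaP and 12.3 ± 1.82 CPM on TH (SD, n = 3 each). It was 1.73-fold higher on THCaP (log2 fold change 0.79, SE 0.15, edgeR adjusted p = 0.00932), more than any other called member. The gene lies at bases 73044854 to 73097629 of chromosome 9, plus strand, and shares 149 exonic bases with Gm27186 on the same strand.

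Rab1a, of transport from endoplasmic reticulum to Golgi, had 178.0, 189.4 and 166.0 CPM on THCaP and 177.1, 191.9 and 191.1 CPM on TH, with overlapping ranges (log2 fold change -0.07, SE 0.08, edgeR adjusted p = 0.549). Rab10, which carries receptors and transporters to the surface, had 173.9, 184.3 and 180.0 CPM on THCaP and 173.9, 185.8 and 182.2 CPM on TH. Those libraries were nearly level (log2 fold change -0.01, SE 0.07, edgeR adjusted p = 0.931).

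Rab8b and Rab6a came close to the threshold in the direction of lower levels on THCaP. Rab8b, an exocytic Rab, had 146.1 to 154.3 CPM on THCaP and 160.4 to 199.0 CPM on TH (log2 fold change -0.28, SE 0.09, edgeR adjusted p = 0.0527). Rab6a, of traffic through the Golgi, had 120.8 to 136.0 CPM on THCaP and 133.6 to 168.0 CPM on TH, so its ranges overlapped (log2 fold change -0.28, SE 0.10, edgeR adjusted p = 0.0678). Its exons share 708 bases with those of Mrpl48 on the opposite strand. Rab3d, a granule Rab, was 28.2 to 28.6 CPM on THCaP and 24.2 to 26.8 CPM on TH, without overlap and not called (log2 fold change 0.16, SE 0.09, edgeR adjusted p = 0.187). Other tested secretory Rabs, Rab1b, Rab2a, Rab2b, Rab3a, Rab8a, Rab13, Rab18, Rab19, Rab39 and Rab43, were not called either.

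Rab32 and Rab29, which act at lysosome-related organelles, were not called. Rab32 had 10.0, 12.1 and 9.07 CPM on THCaP and 9.59, 7.21 and 7.81 CPM on TH, and the ranges overlapped (log2 fold change 0.34, SE 0.16, edgeR adjusted p = 0.142). Rab29, known as a partner of the kinase LRRK2, had 13.3 to 15.9 CPM on THCaP and 10.6 to 12.8 CPM on TH without overlap (log2 fold change 0.34, SE 0.12, edgeR adjusted p = 0.0683).

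Of the Rabs placed in no class, Rab28, which is tied to cilia, rose. It had 42.7, 46.5 and 41.6 CPM on THCaP and 35.3, 37.6 and 36.0 CPM on TH, without overlap. It was 1.20-fold higher on THCaP (log2 fold change 0.26, SE 0.08, edgeR adjusted p = 0.0466). Its edgeR adjusted p was 0.139 without THCaP 1, 0.122 without THCaP 2, 0.0755 without TH 1, 0.109 without TH 2 and 0.150 without TH 3, and 0.0607 with all libraries and no filter on low counts. Rab23, a regulator of Hedgehog signalling, had 9.68 to 15.9 CPM on THCaP and 7.21 to 10.5 CPM on TH, overlapped and was not called (log2 fold change 0.58, SE 0.20, edgeR adjusted p = 0.0616). Rab40c, which joins a ubiquitin ligase, was nearly level between surfaces, at 34.8 to 40.2 CPM on THCaP and 36.2 to 37.9 CPM on TH.

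The 10 members that were not tested were near or at 0. Ehd3 and Rab17 had no count. Rab26, Rab30, Rab33a, Rab37, Rab3b, Rab40b, Rab44 and Rab6b had at most 7 counts in any library, with sums of up to 14 counts over THCaP libraries and up to 15 over TH libraries. Several of these are known from granule secretion, neurons or epithelia, and at this depth the main fit did not test them. In CPM, Rab37 lay lower on THCaP without overlap, on sums of 4 counts over THCaP libraries and 15 over TH libraries.

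Levels between genes were compared in FPKM, which corrects for gene length. Rab5c had the highest mean over all 6 libraries, with 108.2 ± 6.46 FPKM on THCaP and 90.4 ± 5.01 FPKM on TH (SD, n = 3 each). On TH the mean of Rab31 was above it, at 92.0 ± 1.65 FPKM (SD, n = 3). After Rab5c, the order in the mean over all libraries was Rab31, Rab7, Ehd4 and Rab14. Neighbours in this order often overlapped: over all 6 libraries Rab5c ran from 86.2 to 115.0 FPKM, Rab31 from 90.1 to 98.4 FPKM and Rab7 from 84.1 to 100.5 FPKM. In that mean the 10 most abundant members were Rab5c, Rab31, Rab7, Ehd4, Rab14, Rab1a, Rab1b, Rab10, Rab11a and Rab6a, and none of them was called. The called gene Ehd1 ranked 12th in the mean, at 29.2 ± 1.62 FPKM on THCaP and 52.3 ± 1.26 FPKM on TH (SD, n = 3 each), and on TH alone its mean was above those of Rab10, Rab11a and Rab6a. Rab27a was low for the family, at 5.42 ± 0.889 FPKM on THCaP and 3.02 ± 0.442 FPKM on TH (SD, n = 3 each).

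**Figure D3:**
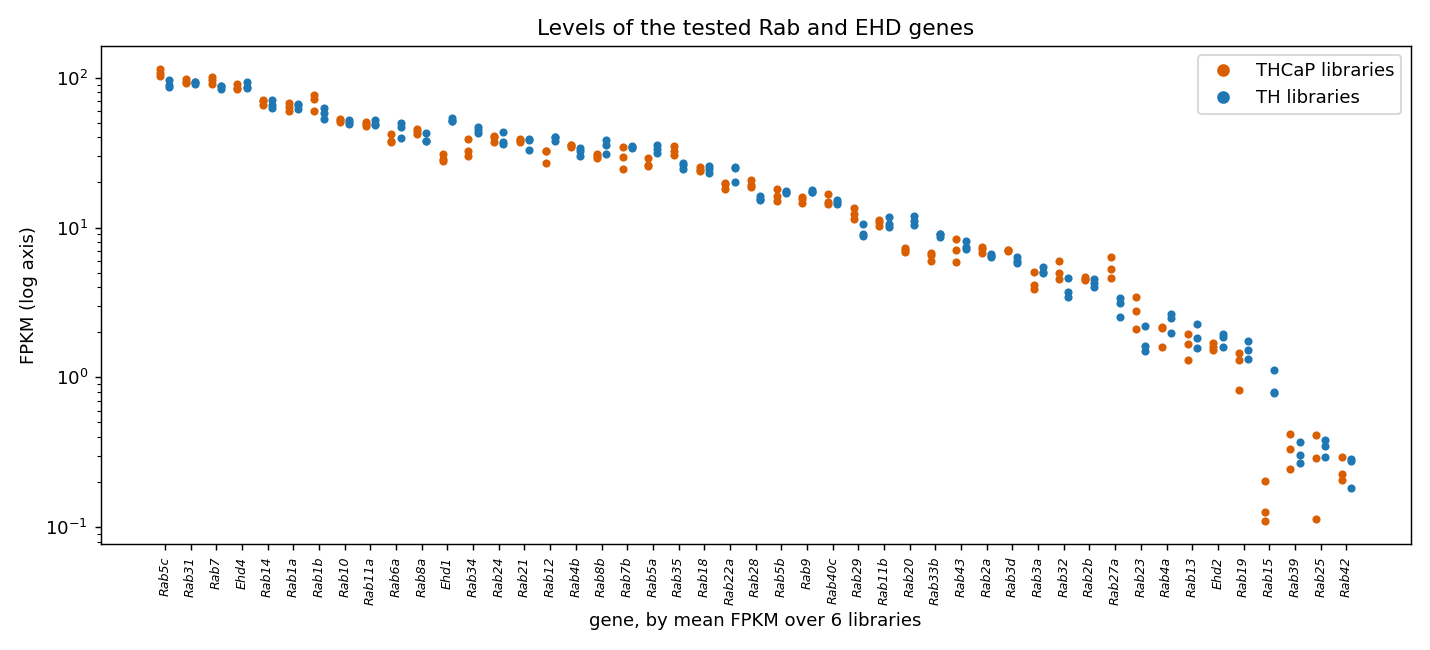
FPKM of the tested members on a log axis, ordered by the mean over all 6 libraries, with THCaP and TH libraries as separate points. The most abundant members are Rab5c, Rab31, Rab7 and Ehd4, near 90 FPKM, and Rab15, Rab39, Rab25 and Rab42 lie under 1 FPKM.

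The summed level of the 57 members was lower on THCaP without overlap on each of the 3 scales used. It was 3603 to 3647 on THCaP and 3801 to 3855 on TH in TMM-scaled CPM, 3676 to 3719 on THCaP and 3752 to 3783 on TH in CPM scaled on library totals alone, and 1291 to 1298 on THCaP and 1303 to 1312 on TH in FPKM. The direction of the Rab sum alone depended on the scale. The 53 Rab genes summed to 3213 to 3222 TMM-scaled CPM on THCaP and 3285 to 3360 CPM on TH. On that scale the sum of all tested genes was also lower on THCaP without overlap. It was 979900 to 984700 CPM on THCaP and 1013000 to 1026000 CPM on TH, so a lower sum on this scale does not set the Rab genes apart. In FPKM the Rab sum turned the other way, with 1170 to 1182 on THCaP and 1163 to 1165 on TH. By CPM scaled on library totals alone the Rab sums overlapped. Ehd1 alone averaged 29.2 FPKM on THCaP and 52.3 FPKM on TH, a wider gap than that between the member sums in FPKM. Of the members' summed FPKM, EHD genes held 8.77% to 9.55% on THCaP and 10.7% to 11.2% on TH. Endocytic Rabs held 39.9% to 41.1% on THCaP and 40.2% to 40.4% on TH, and secretory Rabs 27.5% to 29.3% on THCaP and 27.2% to 28.1% on TH.

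Within families of close paralogues, shares of the family's FPKM shifted without overlap in 4 of 9 families, Ehd, Rab5, Rab7 and Rab3, where 43.4% of all single tested genes had no overlap in CPM. Ehd1 held 24.8 ± 0.236% of the Ehd1, Ehd2 and Ehd4 sum on THCaP and 36.6 ± 1.46% on TH, while Ehd4 held 73.8 ± 0.238% on THCaP and 62.12 ± 1.596% on TH (SD, n = 3 each). Rab5a held 17.8 ± 1.52% of the Rab5 sum on THCaP and 23.8 ± 1.98% on TH, and Rab5c 71.4 ± 2.76% on THCaP and 64.0 ± 2.15% on TH (SD, n = 3 each). A share shows unequal change within a family, not which gene moved. Close paralogues can also share reads in the counting.

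**Figure D4:**
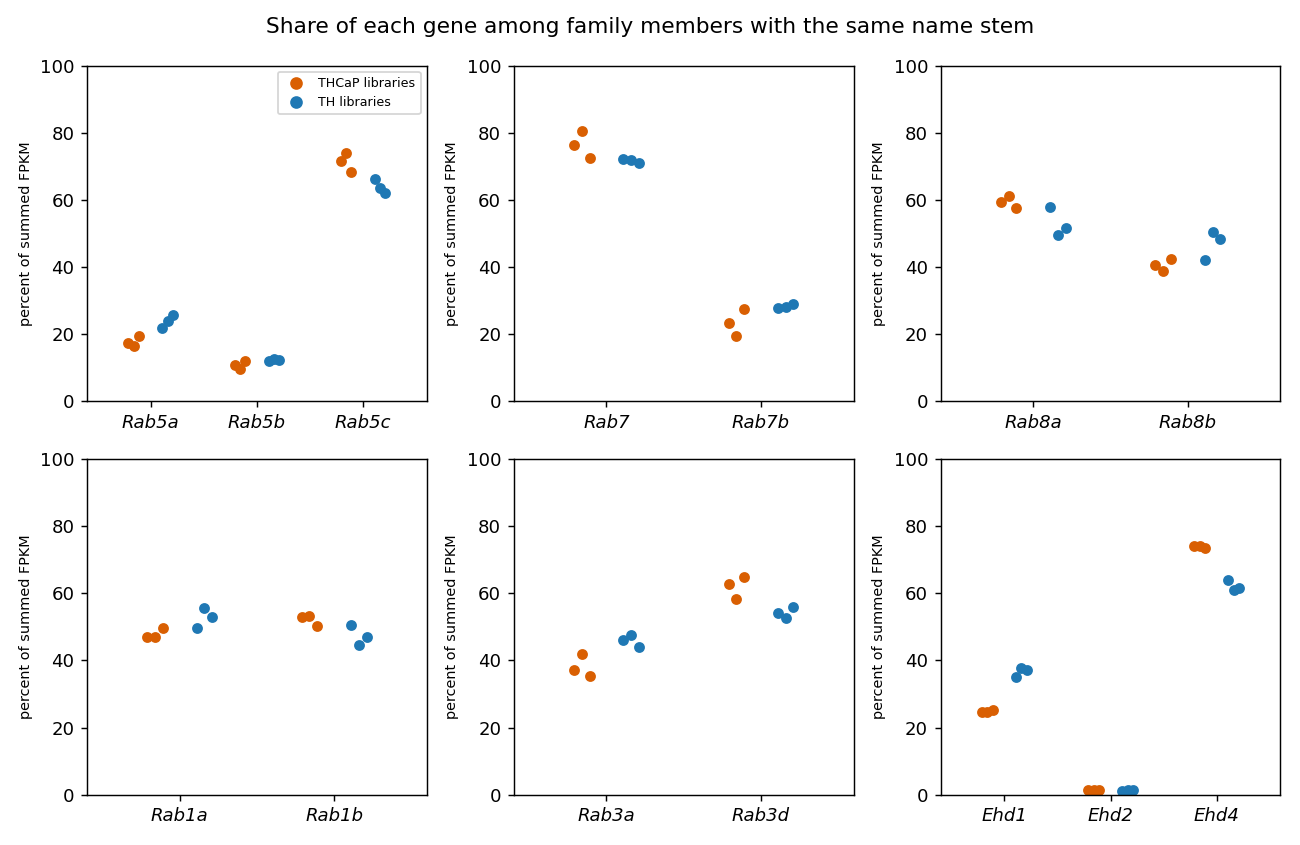
Share of each family's summed FPKM held by its members, in percent, for the 3 THCaP and the 3 TH libraries. Ehd1 held 24.7% to 25.1% of the Ehd family on THCaP and 35.0% to 37.8% on TH, and Rab5a 16.5% to 19.4% of the Rab5 family on THCaP and 21.8% to 25.7% on TH.

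Among the regulators and effectors of Rabs, 138 of 151 genes in the table were tested, and 36 were called (26.1%, against 23.6% of all tested genes), 12 higher and 24 lower on THCaP. Calls higher on THCaP made up 8.70% of these tested genes, against 11.6% of all tested genes. Calls lower on THCaP made up 17.4%, against 12.0%. Exchange factors had 2 genes higher and 1 lower of 34 tested, and GAPs 2 higher and 6 lower of 27. Endosomal effectors had 2 higher and 7 lower of 30, recycling effectors and EHD partners 2 higher and 4 lower of 16. Secretory effectors had 3 higher and 3 lower of 21. The share called in either direction was 8.82% for exchange factors, under the 23.6% of all tested genes. For the other lists given here this share was above it, from 28.6% to 37.5%.

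The endosomal effector Eea1, which tethers early endosomes by binding active Rab5, averaged 79.9 ± 6.37 CPM on THCaP and 115.1 ± 4.73 CPM on TH (SD, n = 3 each), a log2 fold change of -0.53 (SE 0.08, edgeR adjusted p = 0.00576). Wdr91, which acts in the change from early to late endosomes, averaged 105.2 ± 19.0 CPM on THCaP and 173.2 ± 3.75 CPM on TH (SD, n = 3 each), a log2 fold change of -0.72 (SE 0.12, edgeR adjusted p = 0.00675). Plekhm1, a Rab7 effector in fusion with lysosomes, was lower on THCaP (log2 fold change -0.49, SE 0.13, edgeR adjusted p = 0.0289). Its edgeR adjusted p reached 0.0947 with a library left out and missed 0.05 without THCaP 1, TH 1, TH 2 or TH 3. Eea1 and Wdr91 were called with every single library left out.

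Rab11fip1, a Rab11 effector, averaged 32.7 ± 1.22 CPM on THCaP and 54.7 ± 7.63 CPM on TH (SD, n = 3 each), a log2 fold change of -0.74 (SE 0.11, edgeR adjusted p = 0.00454). Micall2, a Rab8 and Rab13 effector, averaged 16.7 ± 1.85 CPM on THCaP and 30.7 ± 1.75 CPM on TH (SD, n = 3 each), a log2 fold change of -0.88 (SE 0.11, edgeR adjusted p = 0.0027). Both were called with every single library left out. The kinases that phosphorylate Rabs moved in opposite directions. Lrrk2 was lower on THCaP (log2 fold change -0.78, SE 0.13, edgeR adjusted p = 0.00656) and Lrrk1 higher (log2 fold change 0.46, SE 0.11, edgeR adjusted p = 0.0186). Lrrk2 was called with every single library left out, and Lrrk1 was not called without THCaP 1, TH 2 or TH 3, with edgeR adjusted p up to 0.0876.

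Of the remaining partner genes, the Rab5 exchange factor gene Rabgef1 was lower on THCaP (log2 fold change -0.47, SE 0.10, edgeR adjusted p = 0.0113), and the exchange factor genes Rab3il1 and Madd were higher (log2 fold change 0.36 and 0.27, edgeR adjusted p = 0.0469 and 0.0306). The GAP genes Tbc1d2b, Tbc1d15 and Tbc1d2 were lower (log2 fold change -0.61, -0.59 and -0.51, edgeR adjusted p = 0.0072, 0.00753 and 0.0399). Tbc1d15, whose protein acts on Rab7, averaged 93.4 ± 7.21 CPM on THCaP and 140.5 ± 16.8 CPM on TH (SD, n = 3 each). Pacsin2, an EHD partner, and Rufy1, an effector of endosomal Rabs, were higher (log2 fold change 0.38 and 0.39, edgeR adjusted p = 0.0281 and 0.0341). Kif20a, a Rab6-binding kinesin of dividing cells, was higher (log2 fold change 0.49, edgeR adjusted p = 0.0141) and Golgb1, a Golgi tether, lower (log2 fold change -0.43, edgeR adjusted p = 0.0152). Rabac1, a prenylated Rab acceptor, was lower on THCaP (log2 fold change -0.47, SE 0.10, edgeR adjusted p = 0.0141). Of these 11 genes, Tbc1d2b and Tbc1d15 were called with every single library left out. The other 9 missed 0.05 without THCaP 1, all of those but Rabac1 also without TH 3, and all but Rabac1 and Kif20a without TH 2. Rab3il1, Madd, Tbc1d2, Rufy1 and Pacsin2 also missed it without THCaP 2, and Tbc1d2 and Pacsin2 without TH 1, with edgeR adjusted p up to 0.168.

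Promoter sequence was available for 48 of the 57 members from the RefSeq promoter table on GRCm38.p6, which covers 250 bases before to 50 bases after a start. The median GC content was 61.8% for members and 52.7% for all promoters of the table. Motifs were searched on both strands. For the 8 members with several starts, a match in any of their windows counted. The E-box CACGTG occurred for 6 of 48 members (12.5%), against 8.09% of 27025 genes, and those 6 were Rab20, Rab5a, Rab27a, Rab21, Rab23 and Rab24. The AP-1 site TGANTCA occurred for 2 members, Rab15 and Rab34 (4.17%, against 8.97% of genes), and the kappa-B consensus for 4, Rab28, Rab15, Rab11a and Ehd3 (8.33%, against 9.55%). The interferon-response pair TTTCNNTTTC occurred for 1, Rab19 (2.08%, against 3.99%). A match describes letters in these windows and is not evidence of binding.

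These stretches show the E-box or AP-1 matches of called members above 5 CPM, with the matching letters in capitals and all bases given 5′ to 3′ on the gene's strand. For Rab5a, Rab34 and Rab27a they are the 250 bases before a start, and for Rab20 the 30 bases around the E-box, which begins 46 bases before the RefSeq start. All 30 bases lie within the first Rab20 exon of GENCODE vM21, whose start is farther upstream. Rab5a has 2 E-boxes, at 235 and 95 bases before its start. The Rab34 match is the AP-1 site, 58 bases before the first of its starts in the table. The Rab27a E-box lies 246 bases before the second of its starts.
Rab5a, chr17:53478984-53479233, plus strand: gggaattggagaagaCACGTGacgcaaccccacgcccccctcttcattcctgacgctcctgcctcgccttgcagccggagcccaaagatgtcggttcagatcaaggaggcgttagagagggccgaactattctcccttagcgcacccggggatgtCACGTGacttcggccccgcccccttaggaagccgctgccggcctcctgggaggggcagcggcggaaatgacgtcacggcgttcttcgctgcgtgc
Rab34, chr11:78188177-78188426, plus strand: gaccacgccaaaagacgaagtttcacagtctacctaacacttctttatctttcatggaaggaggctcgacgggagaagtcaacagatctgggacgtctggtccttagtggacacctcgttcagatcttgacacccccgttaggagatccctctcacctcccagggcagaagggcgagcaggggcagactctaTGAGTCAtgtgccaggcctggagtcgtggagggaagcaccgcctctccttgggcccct
Rab27a, chr9:73063898-73064147, plus strand: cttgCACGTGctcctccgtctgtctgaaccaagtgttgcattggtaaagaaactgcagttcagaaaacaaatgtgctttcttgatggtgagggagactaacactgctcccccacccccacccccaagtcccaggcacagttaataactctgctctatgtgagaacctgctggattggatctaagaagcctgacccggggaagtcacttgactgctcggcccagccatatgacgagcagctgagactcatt
Rab20, chr8:11478669-11478698, minus strand: cggccgggcaccCACGTGgtcgcagggctg
Rab5a and Rab20, which fell, and Rab27a, which rose, hold the same E-box letters, as do Rab21, Rab23 and Rab24, which were not called.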

How the data were processed

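RNA of 6 samples was sequenced, 3 from THCaP and 3 from TH, and groups and replicate numbers came from the sample labels. The deposited counts are the authors' whole-number reads per gene symbol, made with fastp, HISAT2 and HTSeq on mm10 per the submitters' processing notes. The sources used here give no tool version, gene annotation or strand setting, and reads of overlapping genes cannot be told apart. This touches 5 called members that share exonic bases with another gene. The deposited FPKM are the authors' counts divided by gene length and library total: for 11079 genes with at least 10 counts in every library, the implied length was whole within 0.01 bases for 100%. FPKM were used for levels between genes and in alternatives.

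The count test was edgeR 4.0.16 in R 4.3.3: 11480 genes passed filterByExpr with a minimum count of 10 and a minimum total of 15. After TMM scaling, THCaP was set against TH by the robust quasi-likelihood F test, without covariates. P-values were Benjamini-Hochberg adjusted over all tested genes and called under 0.05. Fold changes are THCaP over TH, and SE is the absolute log2 fold change over the square root of F. Counting limits for 0 (3 counts, at most 0.107 CPM) cover counting error only. The script was tested on simulated data. No pair of libraries within a surface agreed within sampling noise (chi-square per degree of freedom 3.84 to 48.4).

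Members, classes, partner lists and markers were chosen with earlier results of these data known. Classes follow textbook roles, and many Rabs act at more than 1 step. Values were given for called members that averaged 5 CPM or more and, in every case, for Rab5a, Rab5c, Rab7, Rab11a, Rab4a, Rab14, Rab1a, Rab27a, Rab20, Rab31, Rab32, Rab10 and Ehd1, and for up to 3 called genes of at least 5 CPM per partner list, of which 1 is not reported here. Other genes named with values were chosen after their values were seen. Alternatives were DESeq2 1.42.0, RLE factors, library totals, no filter, a filter of 5 CPM in 3 libraries, a replicate block, limma 3.58.1 on log2(FPKM + 1) or log2(FPKM + 0.1) for genes averaging 1 FPKM or more, the first also without a filter, and each library left out. Positions came from GENCODE vM21 on GRCm38, and promoters from RefSeq on GRCm38.p6.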

Additional observations from a re-analysis of the deposited data

How the results depend on the processing

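Of 296 values for 20 named members under the 15 alternatives, 244 kept direction and side of the threshold, 30 lost the call, 3 gained it and 19 changed sign. The sign changes were all of Rab10, Rab14 and Rab31, near 0 and never called: 0.042, 0.047 and 0.044 with library totals, 0.042, 0.048 and 0.043 by limma with pseudocount 1, with or without the filter, and 0.042, 0.048 and 0.044 with pseudocount 0.1. With a library left out, Rab10 ran from -0.039 to 0.012, Rab14 from -0.050 to 0.045 and Rab31 from -0.035 to 0.0093. Ehd1, Rab15, Rab20, Rab27a and Rab33b were called under every alternative that tested them. Members outside the 20 also gained calls. Rab23 was called under 6 of the 15 alternatives, Rab29 under 5, Rab8b under 4 and Rab6a under 3. Rab1b, Rab3d and Rab7b were called under 1 each. The count of members called higher was 3, and 6 with library totals and 5 by limma on log2(FPKM + 1), which apply no composition factor and call 1904 of 11480 and 1745 of 10027 genes higher, against 1333 of 11480. The count called lower was 8, and 4 by limma without a filter, which calls 8.73% of all genes, against 23.6%. With a library left out, 6.53% to 36.0% of all genes were called, and the member counts ran from 1 to 7 higher and from 4 to 11 lower. The cause was not tested.

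The medians kept their sign. The endocytic median was -0.12, and -0.18 with the 5 CPM filter, -0.069 with library totals and -0.069 by limma without a filter. The recycling median was -0.07, and -0.00052 and -0.00043 by limma with pseudocounts 1 and 0.1. The secretory median was -0.06, and -0.0066 with library totals, -0.0119 and -0.0122 by limma with pseudocounts 1 and 0.1, and -0.0054 by limma without a filter. The EHD median was -0.21, and -0.099 by limma with pseudocount 1, with or without the filter. With a library left out, the endocytic median ran from -0.24 to -0.12, the recycling from -0.099 to -0.05, the secretory from -0.081 to -0.016 and the EHD from -0.30 to -0.15. Library totals shifted the median of all genes to 0.059. Limma on FPKM shifted it to 0.059 and 0.065 with pseudocounts 1 and 0.1, and to 0.043 without a filter. Class medians under these settings are relative to those values.

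The replicate numbers did not pair the samples: same-numbered libraries had deviations correlated at -0.02, -0.0723 and 0.0598. With the replicate block 2 members were called higher, Rab27a and Rab23, and 8 lower. Rab23 gained the call, and Rab28 and Rab35 missed it at edgeR adjusted p = 0.0769 and 0.0543. Counts limit what can be said of members under 1 CPM.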
